A study of Mus with 18 samples.

Results

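The prostaglandin and leukotriene genes described here are 10 of the 21401 gene symbols for which the authors deposited RNA-seq values. They were chosen by symbol as the phospholipase Pla2g4a, the cyclooxygenases Ptgs1 and Ptgs2, the prostaglandin E synthases Ptges and Ptges3, the prostacyclin synthase Ptgis, the prostaglandin E2 receptors Ptger2 and Ptger4, the 5-lipoxygenase Alox5 and its activating protein Alox5ap. All 10 symbols were found in both expression tables. No measured value entered the rule that chose them, but earlier results of these data were known.

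Prostaglandins and leukotrienes are short-lived lipid signals made from arachidonic acid. Cytosolic phospholipase A2 (Pla2g4a) frees arachidonic acid from membranes, and the cyclooxygenases turn it into prostaglandin H2, which terminal synthases convert to prostaglandin E2, prostacyclin and other prostanoids. In the other branch, 5-lipoxygenase and its activating protein FLAP (Alox5ap) start leukotriene synthesis, a pathway best known from myeloid cells. Ptgs2 is the textbook inducible cyclooxygenase of inflammation, and Ptgs1 the constitutive form. Prostaglandin E2 and prostacyclin are mediators of pain, fever and vascular tone, and prostaglandin E2 also acts on muscle stem cells.

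The study asked how moringa isothiocyanate-1 (MIC-1), a plant isothiocyanate, alters the response to lipopolysaccharide (LPS), a bacterial cell wall component that activates innate immunity. The 18 libraries fell into 6 groups of 3. In the first experiment, wild type cells labelled C2C12, a mouse myoblast line, received saline vehicle (control), 1 μg/mL LPS, or LPS with 10 μM MIC-1 (LPS-MIC-1), for 24 h by the label of the last group. The study's text gives a lower MIC-1 concentration for the transcriptome of these cells, and its methods an ethanol vehicle. In the second, gastrocnemius muscle came from wild type C57BL/6 male mice given vehicle, 10 mg/kg LPS into the peritoneum, or LPS after 3 daily doses of 80 mg/kg MIC-1 by gavage, and was taken 16 h after LPS. The age of the mice was not given in the sources used here, and neither experiment had a group with MIC-1 alone. The labels do not say whether the cell libraries came from separate cultures, so p-values measure only the spread between these libraries, which may be technical.

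Expression is given as FPKM, a read number scaled for transcript length and library depth, which allows levels of different genes to be set side by side within a library. Both tables were normalized separately, and no test was made across them. Reads per library were not stated, and the authors' normalized counts, averaged over the libraries of a comparison, summed to between 13873466 and 18734426. Differences were tested with limma on log2(FPKM + 0.1) over all genes with a mean FPKM over 1, which were 10877 in the cell experiment and 9475 in muscle. Calls, higher or lower, required a log2 fold change beyond 1 in size and a Benjamini-Hochberg adjusted p below 0.001 in cells or 0.05 in muscle. All fold changes marked as log2 are on the log2(FPKM + 0.1) scale, which understates the change of genes with low values. An exact permutation test of 3 libraries against 3 cannot go below p = 0.1 and was therefore not used for single genes.

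Marker genes went against the label of 6 libraries. The 14 macrophage markers found in the tables summed to between 8461 and 8568 FPKM in the cell controls, between 5581 and 5710 FPKM in LPS, and between 78.2 and 234 FPKM in LPS-MIC-1. Without Cd14 the sums were 7752 to 7863, 3551 to 3657 and 2.37 to 98.4 FPKM in the same order. Conversely, 9 myoblast markers summed to at most 0.408 FPKM in control and 2.43 FPKM in LPS, against 841 to 1097 FPKM in LPS-MIC-1. Myod1, a defining transcription factor of myoblasts, was listed at 0 in 4 of the 6 control and LPS libraries and reached at most 0.0355 FPKM in the others, whereas the LPS-MIC-1 libraries held 49.5 to 56.7 FPKM. Lyz2, the lysozyme of macrophages, was between 4598 and 4761 FPKM in control, between 1786 and 1866 FPKM in LPS, and at 48.8, 1.87 and 0.616 FPKM in LPS-MIC-1. The fibroblast markers followed the myoblast markers, with sums of at most 0.0543 FPKM in control, 1.95 FPKM in LPS and 442 to 537 FPKM in LPS-MIC-1. Muscle fibre markers summed to 28.7 to 41.7, 10.7 to 14.7 and 732 to 1036 FPKM in the same order. The neutrophil, mast cell, platelet, endothelial and epithelial lists reached at most 15.6 FPKM in any of these libraries. The control and LPS libraries are therefore named by their labels only. In both comparisons that involve LPS-MIC-1 in cells, the treatment and this difference in marker genes cannot be told apart, and leaving out the 6 libraries leaves no comparison.

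**Figure D1:**
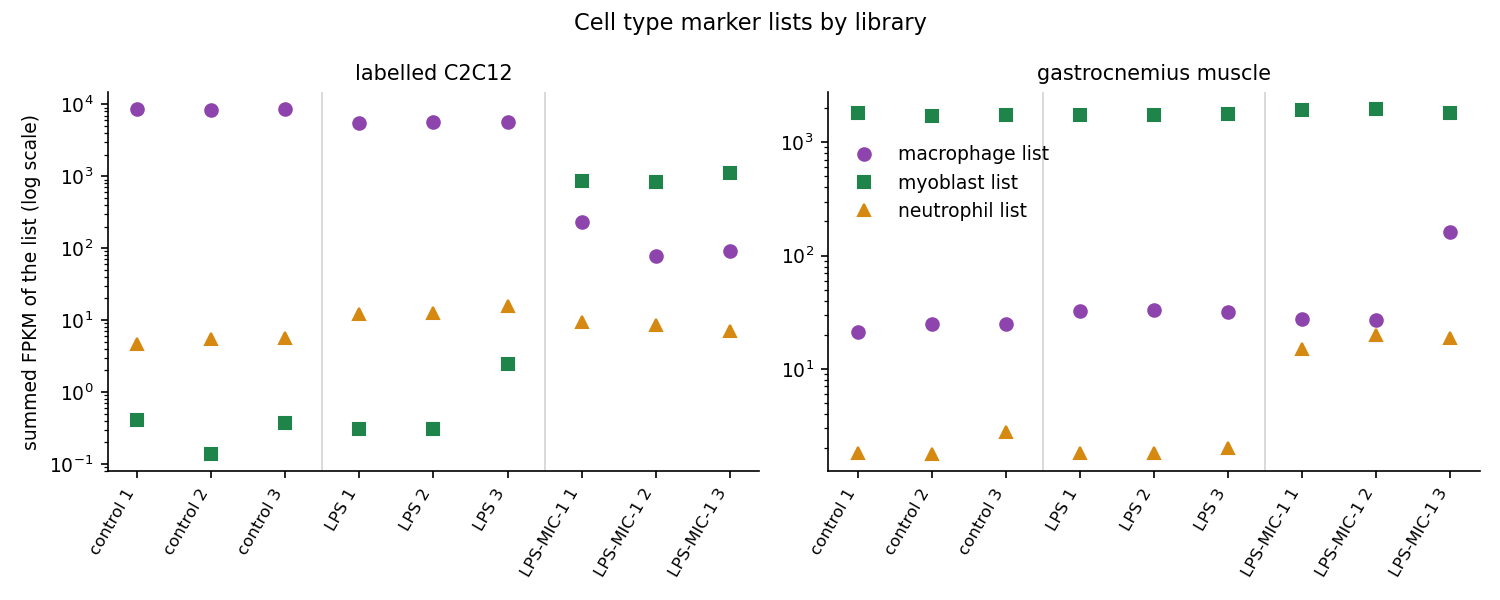
Summed FPKM of the macrophage, myoblast and neutrophil marker lists (log scale) in each of the 9 libraries labelled C2C12 (left) and the 9 muscle libraries (right). In the left panel the control and LPS libraries lie at or above 5581 FPKM for macrophage markers and at or below 2.43 FPKM for myoblast markers, and the LPS-MIC-1 libraries have the opposite order; in the right panel LPS-MIC-1 replicate 3 stands apart at 162 FPKM of macrophage markers.

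With LPS in the cell experiment, Ptgs2, Ptges and Ptger2, which make and sense prostaglandin E2, rose, while Ptgs1 and Alox5 fell. These 5 calls among 10 genes stand beside 20.9% of all tested genes called in this comparison, 10.9% higher and 10.0% lower. Ptges and Ptger2 passed the filter on low values only through the LPS group, and Ptgis only through LPS-MIC-1. Their values in comparisons with that group are therefore given as a description, though the genes stay in the counts of calls. The median log2 fold change of the 10 genes was -0.33, and that of all tested genes 0.

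Ptgs2 had the largest log2 fold change of the 10 genes. Its FPKM was 15.3, 16.5 and 15.8 in the control libraries and 2709.9, 2727 and 2615 in the LPS libraries. Every LPS library lay far above every control library, and the means differed 169-fold, with a log2 fold change of 7.39 ± 0.33 (SE, n = 3 per group) and a limma adjusted p of 6.7e-07. By mean FPKM, Ptgs2 was in place 4514 of 21401 genes in control and in place 27 in LPS, and its rise was the 19th largest of 10877.

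Ptges encodes microsomal prostaglandin E synthase, which works downstream of the cyclooxygenases. It was nearly silent in control, at 0.317, 0.271 and 0.366 FPKM, and reached 20.6, 21.4 and 22.3 FPKM with LPS. The groups did not overlap, and the log2 fold change was 5.69 ± 0.28 (SE). Ptger2, the receptor EP2 that raises cyclic AMP, went from 0.250, 0.179 and 0.204 FPKM to 12.03, 12.08 and 11.74 FPKM. That rise of 5.28 ± 0.35 on the log2 scale (SE) again separated all LPS libraries from all controls.

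Ptger4, the second prostaglandin E2 receptor coupled to cyclic AMP, had the other direction from Ptger2. Its FPKM was 8.92, 9.61 and 9.25 in control and 5.24, 5.50 and 4.99 with LPS. All 3 LPS libraries were lower, but the log2 fold change of -0.81 ± 0.10 (SE; limma adjusted p = 1.6e-04) did not reach the size needed for a call. Within a library, Ptger2 was 0.0186 to 0.0281 times Ptger4 in control and 2.20 to 2.35 times Ptger4 in LPS.

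Ptgs1 was the more abundant cyclooxygenase in control, at 41.7, 41.9 and 38.7 FPKM, and stood at 13.05, 13.17 and 11.96 FPKM with LPS. All LPS libraries were lower, by 1.67 ± 0.07 on the log2 scale (SE; limma adjusted p = 4.6e-07). The ratio of Ptgs2 to Ptgs1 therefore went from between 0.367 and 0.409 in control to between 207 and 219 in LPS. Ptgs2 alone made up 2.80 to 2.94% of the summed FPKM of the 10 genes in control and 87.7 to 88.7% in LPS.

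The leukotriene genes were abundant in the control libraries. Alox5, the enzyme that begins leukotriene synthesis, was at 36.3, 33.3 and 33.3 FPKM in control and at 7.30, 7.59 and 7.94 FPKM with LPS, without overlap, and fell by 2.16 ± 0.09 on the log2 scale (SE; limma adjusted p = 6.0e-07). Alox5ap, which presents arachidonic acid to the enzyme, was at 228, 236 and 237 FPKM in control and at 123, 135 and 142 FPKM with LPS. Its log2 fold change of -0.81 ± 0.12 (SE; limma adjusted p = 4.6e-04) was below the size for a call although no libraries overlapped.

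The remaining genes showed smaller differences. Pla2g4a, at the head of the pathway, was at 70.7, 72.5 and 70.8 FPKM in control and 74.5, 73.1 and 75.6 FPKM with LPS. The groups did not overlap, but the log2 fold change was only 0.06 ± 0.45 (SE; limma adjusted p = 0.93). That standard error pools the spread of all 9 libraries, and the LPS-MIC-1 libraries ranged from 2.63 to 10.7 FPKM. Ptges3, also known as the HSP90 co-chaperone p23, was at 146, 152 and 151 FPKM in control and at 89.3, 93.2 and 91.2 FPKM with LPS. This log2 fold change of -0.71 ± 0.10 (SE; limma adjusted p = 2.7e-04) was likewise not called. Ptgis was listed at 0 in 3 of these 6 libraries and reached at most 0.0360 FPKM in the others, and the authors' mean normalized count over the 6 libraries was 0.516, so that no fold is given.

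**Figure D2:**
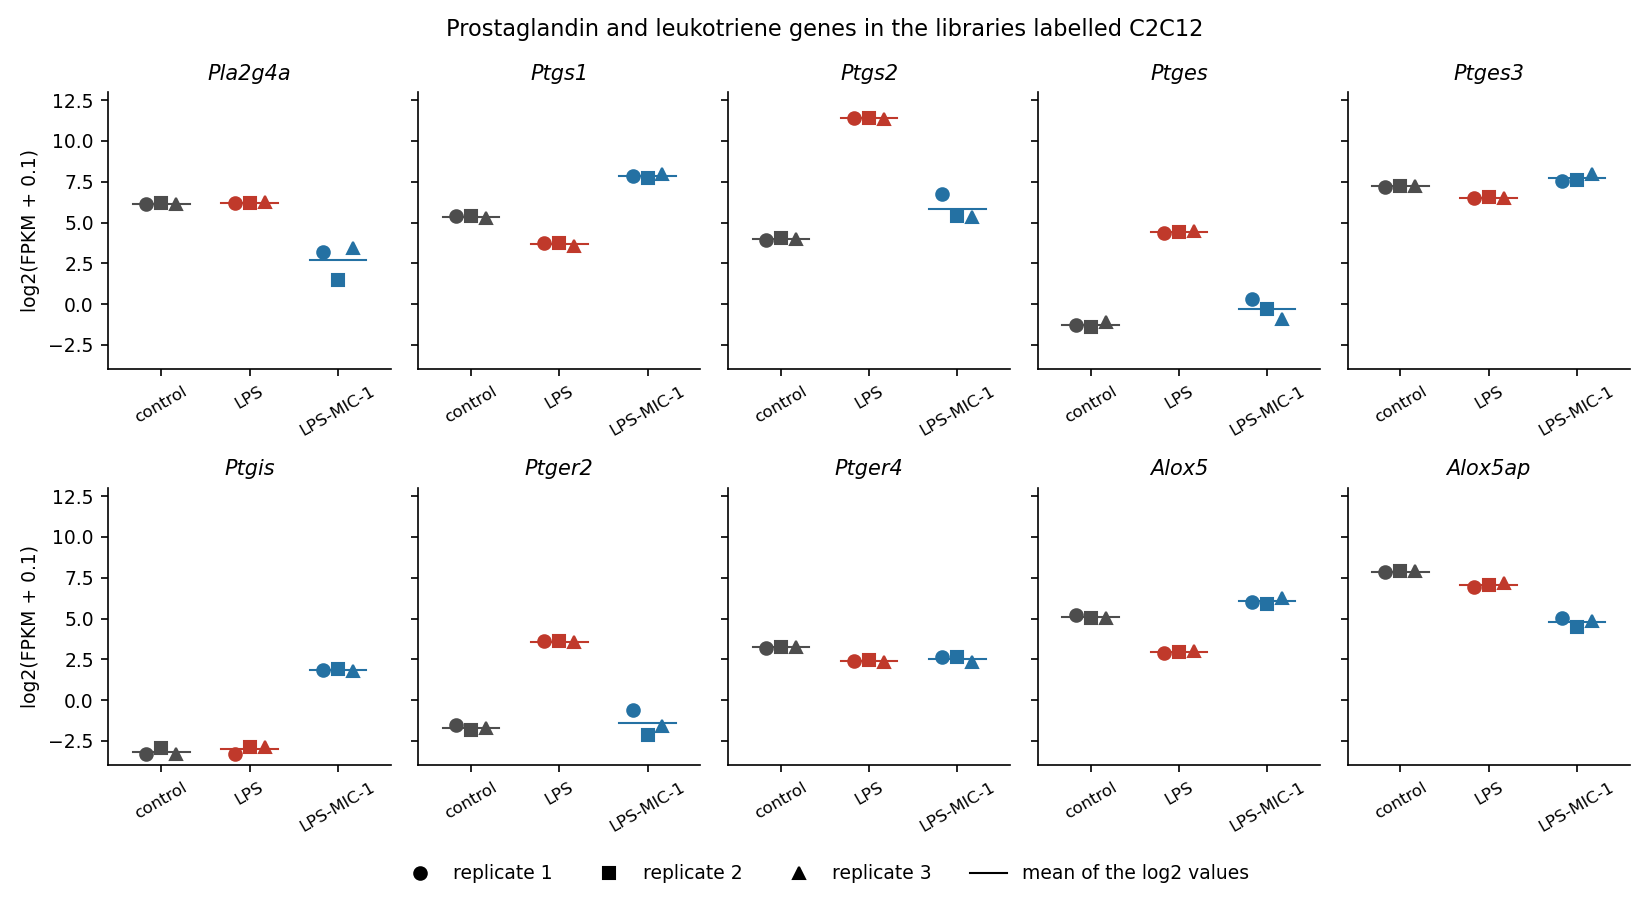
Expression of the 10 genes on the log2(FPKM + 0.1) scale in the 9 libraries labelled C2C12, by group, with 1 point per library and a line at the mean of the log2 values. Ptgs2, Ptges and Ptger2 are highest in all 3 LPS libraries, Ptgs1, Ptgis and Alox5 are highest in all 3 LPS-MIC-1 libraries, and Pla2g4a and Alox5ap are lowest there.

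In LPS-MIC-1 against LPS, Pla2g4a, Ptgs2, Ptges, Ptger2 and Alox5ap were lower, and Ptgs1, Ptges3, Ptgis and Alox5 were higher. These 9 calls, also 9 without LPS-MIC-1 replicate 1, stand beside 49.9% of all tested genes called, 24.3% higher and 25.6% lower. They include Ptges and Ptger2, which passed the filter only through LPS, and Ptgis, which passed it only through LPS-MIC-1. The median log2 fold change was -1.07 for the 10 genes and -0.05 for all tested genes. The comparisons share the LPS libraries, so that an opposite direction in both is not independent evidence, and the marker genes above differed between the same groups.

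Ptgs2 was at 106, 42.0 and 39.8 FPKM in the LPS-MIC-1 libraries, all below the LPS libraries. The mean was 42.8-fold lower than in LPS, a log2 fold change of -5.57 ± 0.33 (SE; limma adjusted p = 8.5e-07). Replicate 1, which held the most macrophage markers of its group, also held 2.60 times as much Ptgs2 as the mean of the other two. Whether these values are linked was not tested.

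Ptges, at 1.14, 0.702 and 0.434 FPKM, fell by 4.73 ± 0.28 on the log2 scale (SE). For Ptger2 the LPS-MIC-1 libraries gave 0.563, 0.126 and 0.240 FPKM, and the log2 fold change against LPS was -5.02 ± 0.35 (SE). Both genes were again highest in replicate 1, and neither overlapped with LPS. Ptger4, at 6.05, 6.22 and 5.02 FPKM, overlapped with LPS and differed by 0.13 ± 0.10 on the log2 scale (SE; limma adjusted p = 0.25).

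Pla2g4a was the member at the head of the pathway and had differed little between control and LPS. In LPS-MIC-1 it was at 8.89, 2.63 and 10.7 FPKM, below every LPS library. The log2 fold change was -3.54 ± 0.45 (SE; limma adjusted p = 9.8e-05), and with only the 6 libraries compared the adjusted p was 0.00103, just short of a call. Alox5ap was also lower in each LPS-MIC-1 library, at 32.2, 22.6 and 28.6 FPKM, and fell by 2.27 ± 0.12 on the log2 scale (SE; limma adjusted p = 4.1e-07).

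Ptgs1, the constitutive cyclooxygenase, was higher. Its LPS-MIC-1 libraries were at 226, 212 and 248 FPKM, an 18.0-fold higher mean than in LPS, with a log2 fold change of 4.16 ± 0.07 (SE; limma adjusted p = 3.0e-09). The ratio of Ptgs2 to Ptgs1 was 0.471, 0.198 and 0.161, with no library within the control range of 0.367 to 0.409. Alox5 was at 64.7, 59.2 and 76.8 FPKM, higher than any LPS library, with a log2 fold change of 3.11 ± 0.09 (SE; limma adjusted p = 2.2e-08).

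Alox5 and Alox5ap, whose products act together, therefore went in opposite directions. Within a library, Alox5 was 0.140 to 0.160 times Alox5ap in control, 0.0560 to 0.0593 times in LPS and 2.01 to 2.68 times in LPS-MIC-1. Only in the LPS-MIC-1 libraries was the enzyme transcript more abundant than that of its activating protein.

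**Figure D3:**
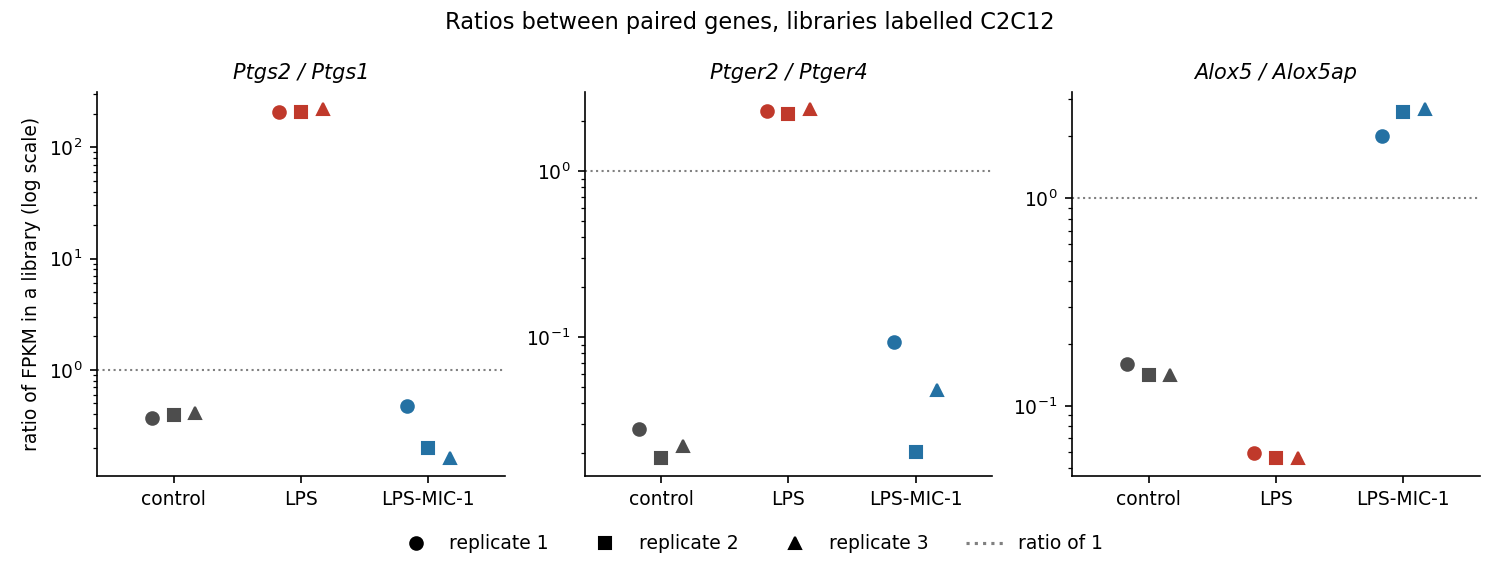
Ratio of FPKM within each library (log scale) for Ptgs2 to Ptgs1, Ptger2 to Ptger4 and Alox5 to Alox5ap in the 9 libraries labelled C2C12, with a dotted line at a ratio of 1. The first 2 ratios exceed 1 in the LPS libraries alone, and the third exceeds 1 in the LPS-MIC-1 libraries alone.

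Ptgis, which makes prostacyclin, was above 1 FPKM in LPS-MIC-1 only, at 3.50, 3.69 and 3.32 FPKM. Since Ptgis passed the filter only through this group, its values are given as a description. Its fitted log2 fold change of 4.87 against LPS depends on the added 0.1, so that no fold is given. Ptges3, at 188, 199 and 249 FPKM, was above every LPS library, and rose by 1.20 ± 0.10 on the log2 scale (SE; limma adjusted p = 5.2e-06). After quantile normalization its log2 fold change was 0.82, under the size for a call.

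In LPS-MIC-1 against control, Ptgs1 and Ptgis (past the filter only through LPS-MIC-1) were called higher, and Pla2g4a and Alox5ap lower. These 4 calls, 5 without LPS-MIC-1 replicate 1, stand beside 43.3% of all tested genes called, 21.1% higher and 22.1% lower, and the medians were 0.72 for the 10 genes and -0.06 for all tested genes. Ptgs1 was higher by 2.48 ± 0.07 on the log2 scale (SE; limma adjusted p = 1.4e-08). Alox5ap fell by 3.08 ± 0.12 (SE; limma adjusted p = 7.8e-08) and Pla2g4a fell by 3.48 ± 0.45 (SE; limma adjusted p = 1.2e-04), the latter again without a call in the 6 libraries compared, at an adjusted p of 0.00120.

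Ptgs2 lay above control in every LPS-MIC-1 library, with a mean 3.95-fold higher, but the limma adjusted p of 0.00104 for its log2 fold change of 1.82 ± 0.33 (SE) just missed the threshold. Without LPS-MIC-1 replicate 1 the log2 fold change was 1.36 and the adjusted p 2.1e-07, and without replicate 3 they were 2.07 and 9.0e-04, both calls. Ptges had a log2 fold change of 0.96 ± 0.28 (SE; limma adjusted p = 0.012) and was called without replicate 3, at 1.26 and an adjusted p of 7.4e-04. Alox5, at 0.95 ± 0.09 (SE; limma adjusted p = 2.4e-05), was called without replicate 2, at 1.04. The log2 fold changes of Ptges3, Ptger2 and Ptger4 were 0.49, 0.26 and -0.68, none of them called.

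**Figure D4:**
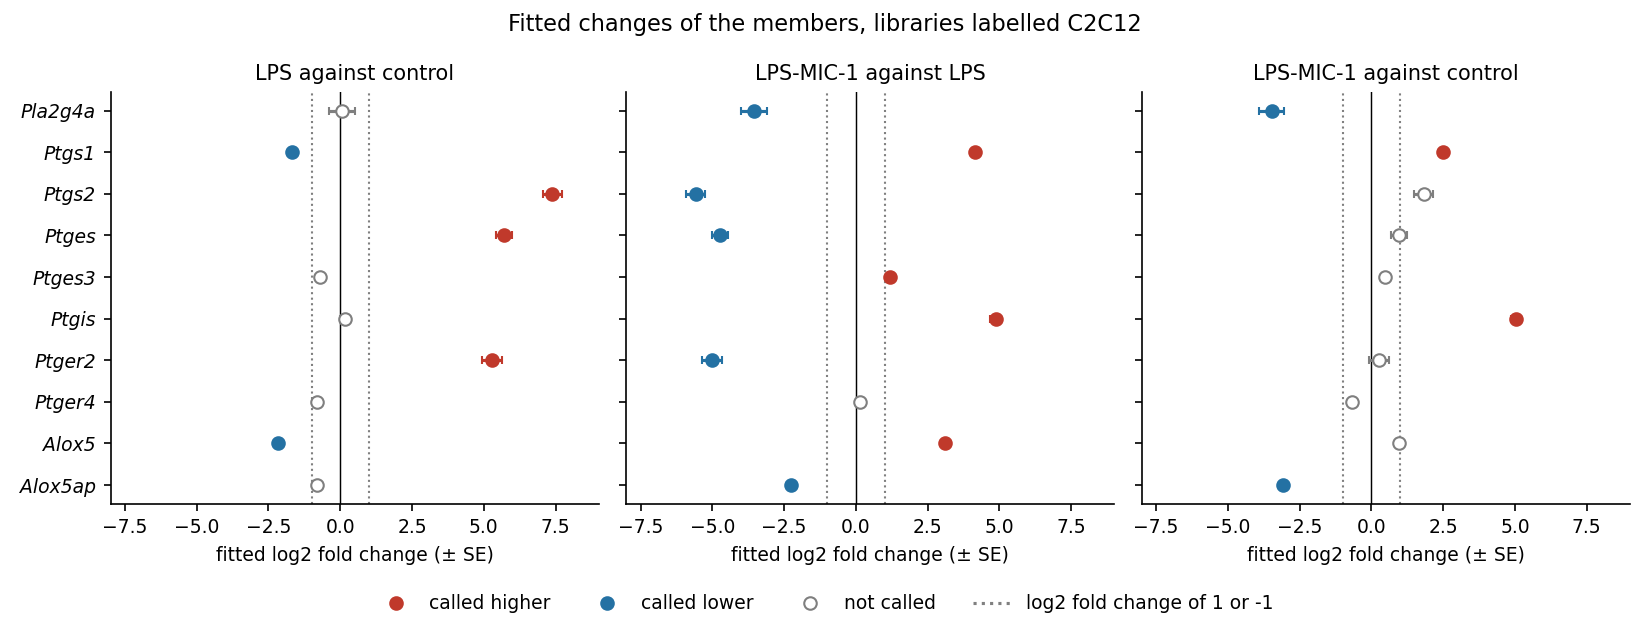
Fitted log2 fold changes of the 10 genes, with their standard errors, in the 3 comparisons of libraries labelled C2C12. Filled points are called, open points are not, and dotted lines mark a log2 fold change of 1 in either direction. Ptgs2, Ptges and Ptger2 lie on the right in the first panel and on the left in the second, and Ptgs1 and Alox5 the reverse.

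A list of 51 other genes of these pathways gave context, and 23 of them were tested in cells. With LPS, 4 rose and 6 fell, beside the 20.9% of all tested genes called, and the median log2 fold change of the list was -0.38. Of the 23 genes, 4 passed the filter on low values only through the control group, among them Hpgd and Cysltr1. Without the filter 42 were tested, of which 5 rose and 7 fell, beside 15.8% of 15296 genes called. The largest rises were in secreted phospholipases and the prostacyclin receptor. Pla2g5 had a mean of 1.63 ± 0.08 FPKM (SD, n = 3) in control and 82.4 ± 3.9 FPKM in LPS, a log2 fold change of 5.57 (limma adjusted p = 2.7e-04). It was no longer called when any control or LPS library was left out (limma adjusted p from 0.00151 to 0.00159). With only the 6 libraries compared it was called (limma adjusted p = 9.1e-08). The other fits also pool the spread of LPS-MIC-1, where Pla2g5 was at 1.83, 0.0629 and 0.359 FPKM. Ptgir, the prostacyclin receptor, went from 1.94 ± 0.21 to 63.4 ± 2.1 FPKM (limma adjusted p = 9.2e-07), and Pla2g2e from 1.65 ± 0.07 to 13.1 ± 0.3 FPKM (limma adjusted p = 2.4e-05). The receptor of prostacyclin rose in libraries where its synthase Ptgis was at or near 0.

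The falls of largest size among the genes called with LPS were in Hpgd, Cysltr1 and Mgst3. Since Hpgd and Cysltr1 passed the filter only through control, their values are given as a description. Hpgd, the dehydrogenase that inactivates prostaglandins, was at 4.82 ± 0.55 FPKM in control and 0.825 ± 0.120 FPKM with LPS. Its call was lost when any of these 6 libraries was left out and kept with only these 6. Cysltr1, a receptor of cysteinyl leukotrienes, was at 7.36 ± 1.3 and 1.61 ± 0.52 FPKM. Mgst3, a microsomal glutathione transferase, went from 55.5 ± 1.7 to 17.5 ± 0.5 FPKM (limma adjusted p = 4.5e-06).

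Against LPS, 6 of the 23 genes were higher in LPS-MIC-1 and 9 lower, beside the 49.9% of all tested genes called, with a list median of -0.54. The balance of directions depended on the filter, since without it 12 of 42 genes were higher and 10 lower, beside 43.9% of all genes called. Akr1b3, an aldose reductase with prostaglandin F synthase activity, rose from 143 ± 3 to 767 ± 131 FPKM (limma adjusted p = 1.4e-07). Ptger1, a further prostaglandin E2 receptor, rose from 13.5 ± 0.6 to 69.3 ± 7.4 FPKM (limma adjusted p = 3.0e-08), and Ptgr1, which inactivates prostaglandins and leukotriene B4, from 11.9 ± 1.1 to 47.1 ± 6.4 FPKM (limma adjusted p = 5.4e-07).

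The largest falls left genes close to 0. Pla2g5 was at 1.83, 0.0629 and 0.359 FPKM in LPS-MIC-1 (limma adjusted p = 2.6e-05). Ltc4s, the leukotriene C4 synthase, was listed at 0 in 2 of the LPS-MIC-1 libraries and at 0.568 FPKM in replicate 2, from a mean of 19.6 ± 2.0 FPKM in LPS (limma adjusted p = 2.0e-05). Hpgds, the hematopoietic prostaglandin D synthase, went from 22.7 ± 0.3 to 0.368 ± 0.378 FPKM (limma adjusted p = 3.9e-06). Both Pla2g5 and Hpgds were highest in replicate 1, as were the macrophage markers.

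Against control, 3 genes were higher and 6 lower, beside the 43.3% of all tested genes called, with a list median of -0.06. Here too the filter set the balance, since without it 10 of 42 genes were higher and 7 lower, beside 39.4% of all genes called. Ptgr1 rose from 6.80 ± 0.24 to 47.1 ± 6.4 FPKM (limma adjusted p = 8.4e-08), Pla2g6, a calcium-independent phospholipase, from 6.36 ± 0.22 to 21.7 ± 2.0 FPKM (limma adjusted p = 1.5e-07), and Akr1b3 from 308 ± 6 to 767 ± 131 FPKM (limma adjusted p = 6.6e-06). After quantile normalization the log2 fold change of Akr1b3 was 0.80, under the size for a call. Ltc4s, at 68.7 ± 3.8 FPKM in control, and Hpgds, at 34.4 ± 0.9 FPKM, had the largest falls with Cysltr1, which was listed at 0 in all 3 LPS-MIC-1 libraries.

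In gastrocnemius muscle, the same genes were scarce. Only Ptges3 and Alox5ap had a mean over 1 FPKM and were tested, and Ptges3 made up 77.9 to 91.5% of the summed FPKM of the 10 genes over all 9 libraries. All 11 muscle fibre markers exceeded 1 FPKM in every muscle library. Their sum was 239017 to 244113 FPKM in control, 226580 to 230212 FPKM in LPS and 180410 to 194536 FPKM in LPS-MIC-1. Single markers did not all follow the sum. Acta1 and Ckm were lower in every LPS-MIC-1 library than in any control library. Tnnt3 was higher, at 9211 to 10047 FPKM in control and 14078 to 14499 FPKM in LPS-MIC-1, as was Myh1, at 77.7 to 82.0 and 164 to 180 FPKM. In this bulk tissue, fewer cells of a type and less RNA per cell cannot be told apart.

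Neither tested gene was called in any muscle comparison. The share of all tested genes called was 1.25% for LPS against control (0.654% higher and 0.591% lower), 15.1% for LPS-MIC-1 against LPS (9.67% and 5.44%) and 15.5% for LPS-MIC-1 against control (9.33% and 6.12%). At an unadjusted limma p below 0.05, 0 of the 2 genes passed in each comparison, beside 29.6%, 61.0% and 62.6% of all tested genes. Quantile normalization shifted the median of all genes by -0.11 on the log2 scale in both comparisons with LPS-MIC-1, and it turned 916 genes higher and 515 lower than in LPS into 781 and 667.

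Ptges3 was even across the muscle groups. It was at 36.6, 35.0 and 34.4 FPKM in control, at 32.9, 34.7 and 36.0 FPKM with LPS, and at 34.9, 33.4 and 34.4 FPKM with LPS-MIC-1. The groups overlapped, and the log2 fold changes were -0.03, -0.01 and -0.05 with a standard error of 0.04 for LPS against control, LPS-MIC-1 against LPS and LPS-MIC-1 against control.

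Alox5ap was at 2.28, 2.17 and 2.10 FPKM in control, at 2.65, 2.40 and 1.67 FPKM with LPS, and at 1.64, 1.57 and 5.49 FPKM with LPS-MIC-1. Replicate 3 of LPS-MIC-1 was above, and the other two below, all other muscle libraries. The log2 fold change of 0.14 ± 0.43 (SE; limma adjusted p = 0.80) against LPS became -0.43 without that library. The macrophage markers summed to 162 FPKM in the same library, to at most 33.2 FPKM in the other muscle libraries, and Lyz2 was at 78.3 FPKM against at most 9.65 FPKM. Not all markers of the list shared this difference. Mrc1 was lower there than in any other muscle library, at 0.206 FPKM. C1qa and C1qb, at 5.33 and 6.79 FPKM there, were below every muscle LPS library.

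Other genes of the 10 were also highest in the same library. Pla2g4a was at 1.16 FPKM there and at most 0.0277 FPKM in the other 8 libraries, and Ptgs2 was at 0.263 FPKM there and at most 0.0346 FPKM elsewhere. Alox5 was at 0.526 FPKM against at most 0.225 FPKM, and Ptgs1 at 1.01 FPKM against at most 0.905 FPKM. Counting Alox5ap, 5 of the 10 genes had their highest muscle value in LPS-MIC-1 replicate 3. The remaining genes, Ptges, Ptges3, Ptgis, Ptger2 and Ptger4, did not, and Ptges was lowest there, at 0.420 FPKM. The part of macrophage RNA in these values was not tested. The share of all genes with their highest muscle value in that library was not computed. Over the control and LPS-MIC-1 libraries, the authors' mean normalized counts were only 2.97 for Ptgs2, 5.10 for Alox5 and 7.59 for Pla2g4a.

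Ptgs2, the gene with the largest rise in cells, was near 0 in muscle. It was listed at 0, 0 and 0.0173 FPKM in control and at 0.0346, 0.0174 and 0.0344 FPKM with LPS, and the authors' mean normalized count of 2.97 over the control and LPS-MIC-1 libraries shows that such values rest on a few reads. A difference was not detectable at this depth. Ptges was even, from 0.470 to 0.679 FPKM in control, from 0.616 to 0.663 FPKM with LPS and from 0.420 to 0.689 FPKM with LPS-MIC-1.

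Ptger4 was at 0.876, 0.688 and 0.682 FPKM in control and at 0.330, 0.266 and 0.621 FPKM with LPS. All LPS libraries were lower than all controls, and in a fit of 15434 genes without the filter the log2 fold change was -0.80 ± 0.29 (SE; limma adjusted p = 0.14). With LPS-MIC-1 it was at 0.552, 0.476 and 0.687 FPKM, between and overlapping both groups. Ptger2 was listed at 0 in all LPS libraries and reached at most 0.0410 FPKM in any muscle library.

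Ptgis was the only one of the 10 genes called in muscle without the filter, where 14.0% of all genes were called in LPS-MIC-1 against LPS. It was at 0.405, 0.407 and 0.223 FPKM with LPS and at 0.0878, 0.0423 and 0.160 FPKM with LPS-MIC-1, without overlap. The log2 fold change was -1.19 ± 0.32 (SE; limma adjusted p = 0.019), on an authors' mean normalized count of 5.08. In control, Ptgis was at 0.134, 0.310 and 0.224 FPKM, overlapping both.

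Ptgs1 in muscle was at 0.900, 0.868 and 0.905 FPKM in control, at 0.633, 0.828 and 0.764 FPKM with LPS, and at 0.188, 0.388 and 1.01 FPKM with LPS-MIC-1. It was not called with all libraries (log2 fold change against control -0.88 ± 0.43 SE, limma adjusted p = 0.14, without the filter). Without LPS-MIC-1 replicate 3, an alternative chosen after seeing the data, it fell by 1.40 against control (limma adjusted p = 0.0054) and by 1.16 against LPS (limma adjusted p = 0.013). In cells the same gene was higher in LPS-MIC-1 than in either other group.

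**Figure D5:**
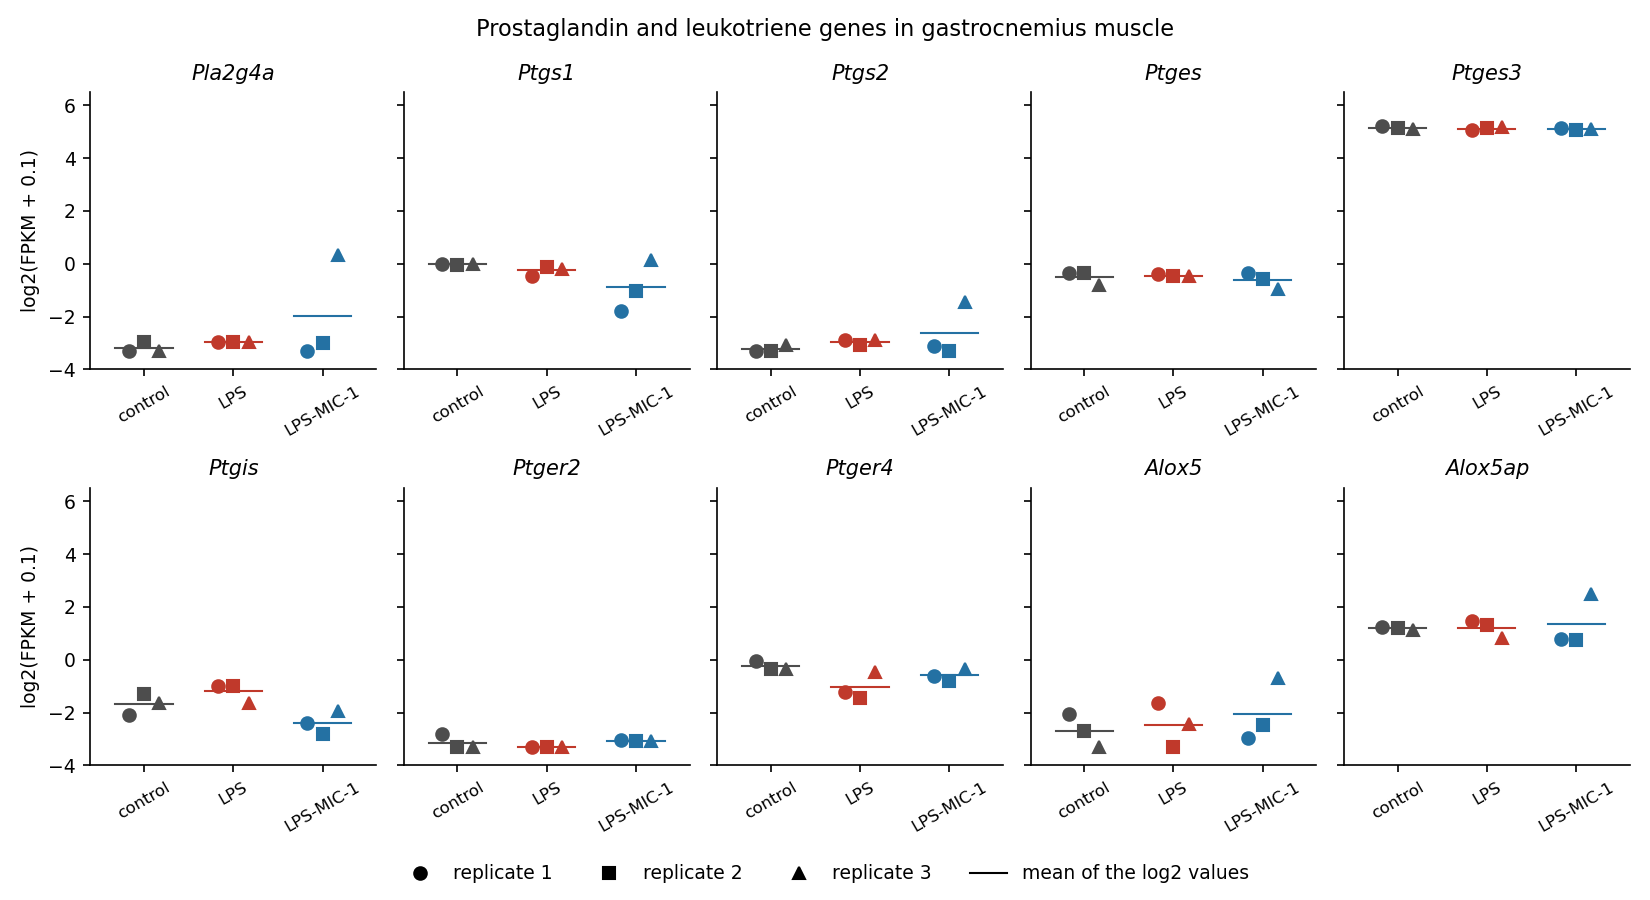
Expression of the 10 genes on the log2(FPKM + 0.1) scale in the 9 gastrocnemius libraries, by group, with 1 point per library and a line at the mean of the log2 values. Ptges3 lies near 35 FPKM in every library, and replicate 3 of LPS-MIC-1 (triangle) is the highest point for Pla2g4a, Ptgs1, Ptgs2, Alox5 and Alox5ap.

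Of the 51 other pathway genes, 17 were tested in muscle. None was called for LPS against control by limma, while 7 had an unadjusted p below 0.05, as had 29.6% of all tested genes. Pla2g4b, a further cytosolic phospholipase, was the only one called with LPS-MIC-1, beside 15.1% of all tested genes against LPS and 15.5% against control. It was at 3.40, 2.64 and 3.00 FPKM in control, at 2.38, 2.43 and 1.66 FPKM with LPS and at 0.747, 1.21 and 0.396 FPKM with LPS-MIC-1. All LPS-MIC-1 libraries were the lowest, with log2 fold changes of -1.44 ± 0.33 (SE; limma adjusted p = 0.0061) against LPS and -1.92 ± 0.33 (SE; limma adjusted p = 0.0013) against control. With a pseudocount of 1 the former was -0.84, under the size for a call. Other marker lists also differed between these groups. Neutrophil markers summed to 14.9 to 20.0 FPKM in LPS-MIC-1 and to at most 2.74 FPKM in the other groups, and Kit was at 4.998 to 5.78 FPKM against at most 0.337 FPKM. The mast cell list that holds Kit summed to 5.97 to 7.06 FPKM in LPS-MIC-1 and to at most 2.69 FPKM in the other groups. Its other 5 markers did not share this difference, with sums of 0.742 to 1.28 FPKM in LPS-MIC-1, 1.27 to 2.35 FPKM in control and 1.06 to 1.74 FPKM in LPS. Endothelial markers summed to 104 to 108 FPKM in control, 66.3 to 69.3 FPKM in LPS and 107 to 124 FPKM in LPS-MIC-1. Without Cldn5 they summed to 94.6 to 97.7, 61.4 to 63.4 and 77.9 to 89.4 FPKM in the same order of groups, so that LPS-MIC-1 lay below control. Myoblast markers summed to 1697 to 1958 FPKM over the 9 libraries. Without Des they summed to 135 to 139, 170 to 176 and 106 to 119 FPKM in the same order of groups. Fibroblast markers summed to 123 to 153 FPKM, and without Dcn to 54.9 to 56.8, 53.6 to 57.4 and 23.0 to 26.1 FPKM in that order. Platelet markers summed to 4.197 to 7.45 FPKM and epithelial markers to at most 1.41 FPKM. The part of any of these cell types in the results was not tested.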

How the data were processed

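Per the labels, RNA was extracted from C2C12 cells and from gastrocnemius muscle. The authors pseudoaligned the reads with kallisto (the submitters' processing notes name mm9) and deposited FPKM values per gene symbol and library, without positions. The authors also deposited DESeq2 results of pairwise comparisons. In these, the authors gave for each gene a mean normalized count, a signal scaled for depth and averaged over the libraries compared, which served only to judge the reads behind a value. Their fold changes, standard errors and p-values were not used, nor was the muscle table of control against LPS, whose rows and mean counts did not match the other muscle tables, nor 9 value columns without a sample name in the muscle FPKM table.

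Samples were grouped by their labels. After adding 0.1 and taking log2, the FPKM of genes with a mean over 1 were modelled apart for cells and muscle (limma 3.58.1, R 4.3.3), with a mean per group, empirical Bayes moderation with a trend and 1 spread per gene over 9 libraries. The Benjamini-Hochberg adjustment ran over the whole table. The steps were tested on simulated data. Plots were made in matplotlib 3.10.9 (Python 3.11.15). No counting interval can be given for single FPKM values.

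The alternatives were a pseudocount of 1, testing every gene that exceeded 0 in 3 or more libraries, median-ratio scaling, quantile normalization, only the 6 libraries compared, a replicate block and leaving out each library. Without LPS-MIC-1 replicate 3 and the filter together was added after seeing the muscle data. The 10 genes, the 51 pathway genes and the marker lists were chosen with earlier results of these data known. Named pathway genes are the 3 largest rises and falls per comparison that were called and had no overlap between groups. Of the marker lists, the 2 most abundant genes of a list could be named. Myod1 and the muscle values of Kit, Mrc1, C1qb, Cldn5, Tnnt3 and Myh1 were named after their values were seen.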

Additional observations from a re-analysis of the deposited data

Results flagged for a closer look

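Some genes lay one way in every library of a group in cells and the opposite way in muscle under the same comparison, without overlap of the groups in either. Of the 61 genes listed (the 10 and the 51 others), 14 did so for LPS-MIC-1 against LPS, 10 for LPS-MIC-1 against control and 5 for LPS against control. Over the 21376 symbols shared by both tables the shares were 17.2%, 17.3% and 7.12%. Values are given for those of the 10 genes and for the pathway genes named above. These differences between the experiments were not tested, the tables were normalized separately, and the muscle values are from the fit without the filter. For LPS-MIC-1 against LPS, Ptgis had a log2 fold change of -1.19 in muscle and 4.87 in cells, Ptger1 of -0.96 and 2.35, Ptgr1 of -0.79 and 1.97, Akr1b3 of -0.52 and 2.41, Pla2g4b of -1.44 and 3.99, and Ptgir of 0.43 and -4.43. Ptger2 had a mean of 0.0194 FPKM in muscle LPS-MIC-1 and was listed at 0 in LPS, against -5.02 in cells. The authors' mean normalized count of Ptger2 over these muscle libraries was only 0.484, and its limma adjusted p in muscle was 0.26. For LPS-MIC-1 against control, Ptgr1 had -0.76 in muscle and 2.77 in cells, Ptger1 -0.83 and 0.91, Akr1b3 -0.42 and 1.3, Pla2g4b -1.92 and 3.54, and Pla2g6 -0.12 and 1.75. For LPS against control, Akr1b3 had 0.10 in muscle and -1.10 in cells, and Pla2g6 -0.12 and 0.84. Pla2g4b was listed at 0 in all cell LPS libraries, so that its fitted value there depends on the added 0.1. In cells, the comparisons with LPS-MIC-1 are those in which the marker genes of cell type differed.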

How the results depend on the processing

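Among recomputed counts of calls, 170 were within 1.5 times the reported count and 16 were not. Among recomputed log2 fold changes of the 10 genes, 523 kept their direction and side of the threshold, 14 changed sign, 6 gained a call and 3 lost one. In cells, the count of the 10 genes called stayed at 5 and 9 when any library was left out, and at 4 to 6 for LPS-MIC-1 against control. For the other pathway genes in that comparison it was 17 without the filter (9 with it). In muscle, LPS-MIC-1 against LPS gave 1 of the 10 genes called without the filter, and 2 when LPS-MIC-1 replicate 3 was also left out. Against control the latter gave 1. The single pathway gene called in muscle became 0 with a pseudocount of 1 and 2 without the filter, after quantile normalization, or when LPS-MIC-1 replicate 3 was also left out, against LPS, and 1 to 2 when leaving out a library. Against control it became 2 with a pseudocount of 1 or the 6 libraries compared, 3 without the filter with or without that replicate, and 1 to 2 when leaving out a library. The cause was not tested. Uncalled values changed sign for Ptgis in cells, LPS against control (-0.028 after quantile normalization), Ptger2, LPS-MIC-1 against control (-1.08 after quantile normalization, and from -0.16 to 0.62 when leaving out a library), and in muscle when leaving out a library. There Ptges3 ranged from -0.064 to 0.0016 for LPS against control (0.0016 without LPS replicate 1) and from -0.047 to 0.018 for LPS-MIC-1 against LPS (0.0043 without LPS-MIC-1 replicate 2). Alox5ap ranged from -0.12 to 0.20, from -0.43 to 0.44 and from -0.42 to 0.45 in the 3 comparisons, with -0.02 without control replicate 3 and -0.05 without LPS replicate 2 or LPS replicate 3. Over all genes in muscle, the count called fell from 118 to 71 with a pseudocount of 1 for LPS against control and was 181 without the filter and LPS-MIC-1 replicate 3. Without the filter it went from 1431 to 2158 against LPS and from 1464 to 2240 against control (2238 without that replicate too). With a replicate block, 5, 9 and 4 of the 10 genes were called in cells and 0 in muscle, and no call among them changed. Of the pathway genes, Hpgd with LPS (adjusted p = 0.00117) and Pla2g2e in LPS-MIC-1 against LPS (adjusted p = 0.00125) lost their limma calls in cells with that block. Same-numbered libraries did not deviate together (r from -0.08 to 0.08). Reads per library limit Ptgis in cells and all but Ptges3 in muscle.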
